A study of Mus musculus with 3 samples.

Results

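Dlg4, Gabbr1, Bak1 and Hps1 are 4 mouse genes whose pre-mRNA has an alternative exon or splice site that is known to be controlled by PTBP1 and to decide whether the mRNA is translated or degraded. They were picked by symbol from the alias column of a gene table with 27389 gene clusters, and each symbol matched 1 cluster. The cells were CAD cells, a mouse catecholaminergic neuroblastoma line, collected 72 h after transfection with siRNAs. The groups were Ptbp1-specific plus Ptbp2-specific siRNAs, Ptbp1-specific siRNAs alone, and control siRNAs, all ON-TARGETplus siRNAs, with 1 library of poly(A)+ RNA per group. The cells were 1 cell line, so nothing here describes neurons of an animal. With 1 library per group no difference has a replicate check and no p-value is given.

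PTBP1, the polypyrimidine tract binding protein, binds pyrimidine-rich RNA and most often represses the splicing of nearby exons. PTBP2 is its paralogue of the nervous system and shares many of its targets. When a splicing choice shifts the reading frame and places a stop codon well before the last exon junction, the mRNA becomes a substrate of nonsense-mediated decay, so a splicing regulator can set the amount of an mRNA. The direction depends on the exon: in mouse Dlg4 and Gabbr1 the exon that PTBP1 represses is needed for the reading frame, whereas in Bak1 the repressed microexon breaks it, and in Hps1 PTBP1 favours the 5′ splice site that keeps the frame.

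Each of these choices was found in the mouse GENCODE annotation of the mm9 build (assembly NCBIM37), the build of the gene table, by setting a coding transcript beside one annotated as a target of decay. In Dlg4, which encodes the postsynaptic scaffold PSD-95, the decay transcript lacks exon 18 of 20, the 110 bases at chr11:69857160-69857269 on the plus strand. In Gabbr1, which encodes a subunit of the GABA-B receptor, it lacks exon 15 of 23, the 151 bases at chr17:37204159-37204309 on the plus strand. In Bak1, which encodes a pore-forming killer of the BCL-2 family, it has an added exon 5 of only 20 bases at chr17:27158608-27158627 on the minus strand. In Hps1, which encodes a subunit of the BLOC-3 complex of lysosome-related organelles, exon 18 runs on for 128 bases to a second 5′ splice site, at chr19:42832155-42832282 on the minus strand.

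The 3 alternative exons are shown 5′ to 3′ because their lengths are what shifts the frame.
Dlg4 exon 18: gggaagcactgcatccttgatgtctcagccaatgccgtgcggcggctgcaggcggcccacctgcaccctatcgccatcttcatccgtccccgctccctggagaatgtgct
Gabbr1 exon 15: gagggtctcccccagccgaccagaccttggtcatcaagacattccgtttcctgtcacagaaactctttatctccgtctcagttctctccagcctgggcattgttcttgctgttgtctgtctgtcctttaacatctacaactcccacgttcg
Bak1 microexon: gccagcagcaacatgcacag

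None of the 4 stretches has a length divisible by 3. Translated from the annotated start codon, the coding forms ran for 721 codons in Dlg4, 960 in Gabbr1, 209 in Bak1 and 704 in Hps1. The altered forms met a stop after 622, 577, 151 and 634 codons in the same order. These stops lay 80 bases before the last exon junction in Dlg4, 824 in Gabbr1, 89 in Bak1 and 175 in Hps1, whereas each coding form ended in its last exon. For Dlg4, Bak1 and Hps1 the last codon was also that annotated for the decay transcript. The Gabbr1 decay transcript differs from the coding one at a second, earlier exon as well, and its annotated coding part ends before exon 15, so there the stop given is that of the coding transcript with exon 15 removed.

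**Figure D1:**
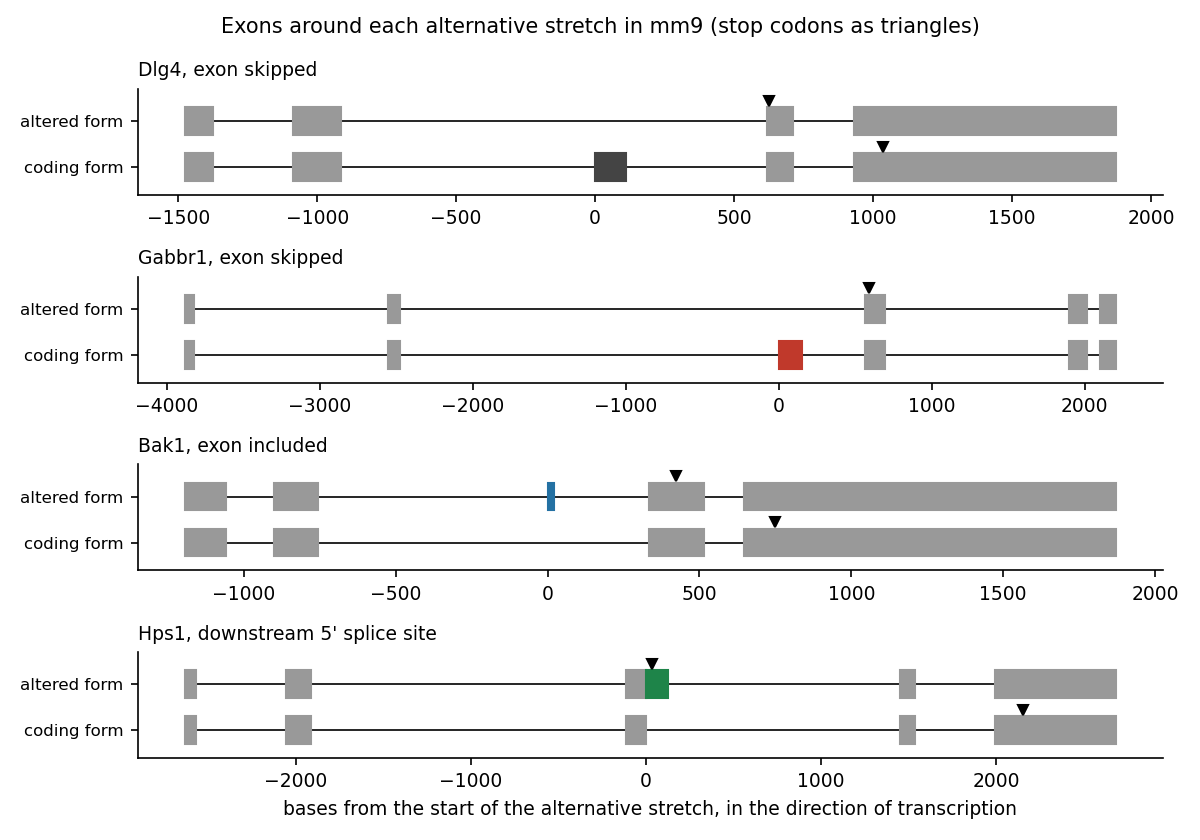
Exons around each alternative stretch, drawn to scale along the direction of transcription in bases from the start of that stretch, with the altered form above the coding form. Grey boxes are exons, coloured boxes the alternative stretch and triangles the first in-frame stop codon, which lies 1 exon earlier than the last in the altered forms of Dlg4 and Bak1; the stop of the Gabbr1 coding form is beyond the right edge.

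The bases that precede the 3 alternative exons, and those between the 5′ splice sites of Hps1, are where a pyrimidine tract binding protein could bind. Capitals mark TCTT and CTCTCT, short motifs that PTBP1 is known to bind, searched on the transcribed strand only because the protein binds RNA. The motifs overlapped nowhere in these 4 windows.
Dlg4, 100 intron bases before exon 18, chr11:69857060-69857159: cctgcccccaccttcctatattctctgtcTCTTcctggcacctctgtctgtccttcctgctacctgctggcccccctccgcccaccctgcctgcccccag
Gabbr1, 100 intron bases before exon 15, chr17:37204059-37204158: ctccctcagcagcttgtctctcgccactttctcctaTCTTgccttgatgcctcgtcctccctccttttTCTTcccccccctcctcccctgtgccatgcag
Bak1, 100 intron bases before the microexon, chr17:27158628-27158727: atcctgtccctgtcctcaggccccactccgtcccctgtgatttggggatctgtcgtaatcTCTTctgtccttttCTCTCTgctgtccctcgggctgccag
Hps1, 128 bases between the 5′ splice sites, chr19:42832155-42832282: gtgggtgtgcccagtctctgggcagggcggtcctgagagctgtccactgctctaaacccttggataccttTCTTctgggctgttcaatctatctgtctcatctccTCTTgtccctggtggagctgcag

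Pyrimidines made up 79% of the window in Dlg4, 81% in Gabbr1 and 71% in Bak1. The median over the 177716 windows before all internal exons of coding transcripts was 55%, and 99.6%, 99.7% and 97.6% of those windows held fewer pyrimidines than Dlg4, Gabbr1 and Bak1. In Gabbr1 an unbroken run of 35 pyrimidines, longer than the longest run of 99.6% of windows, lay near the exon, while the longest run in Dlg4 was 9, the median of all windows. The Hps1 stretch had 60.2% pyrimidines against a median of 50.8% in windows of 128 bases after internal exons, and 89.7% of those had fewer. The motif counts were less unusual. TCTT occurred once in Dlg4 and Bak1, and at least once in 63.4% of all intron windows. Gabbr1 held 2 matches, and 28.01% of intron windows held at least as many. Hps1 also held 2, and 21.5% of the windows after internal exons held at least as many. CTCTCT was found in Bak1 alone of the 4, and in 10.4% of all intron windows. These matches describe the sequence and do not show binding.

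The 5′ splice sites of Hps1 are shown with the last 3 exon bases and the first 6 intron bases, GT in capitals, because the choice between them is the event.
Hps1 upstream 5′ splice site: atgGTgggt
Hps1 downstream 5′ splice site: cagGTaagc

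The knockdown was read from the targeted genes. Ptbp1 had 1516 reads with both siRNAs, 1486 with Ptbp1 siRNA and 7191 with control siRNA, which is 4.41-fold lower with both siRNAs (95% counting interval 4.17 to 4.67) and 5.35-fold lower with Ptbp1 siRNA (5.06 to 5.66) than in the control. Ptbp2 had 633, 3044 and 784 reads in the same order, so it was 1.15-fold lower than in the control with both siRNAs (1.04 to 1.28) and 3.51-fold higher with Ptbp1 siRNA alone (3.24 to 3.80). The library with both siRNAs is therefore one in which Ptbp1 mRNA was low and Ptbp2 mRNA was not raised, rather than one without Ptbp2. Library totals were 14242495, 16899549 and 16011466 reads over clusters with both siRNAs, Ptbp1 siRNA and control siRNA, and 1 CPM (the scaled read value) equals 14.3, 16.95 and 15.3 reads. Of 12 markers of catecholaminergic cells 11 were above 1 RPKM, the deposited read value per length and library total, in each library, and their summed level was 1010 RPKM with both siRNAs, 834 with Ptbp1 siRNA and 912 with control siRNA. With both siRNAs against control siRNA 6 of these 12 markers were above and 6 below 0 on the log2(CPM + 1) scale. Their median was 0.03 and the lowest was at -0.88. Dbh and Phox2a of that list were called higher, at 1.22 and 1.05, and their part in the results was not tested. Fibroblast markers summed to 1.03, 1.63 and 1.89 RPKM over 7 genes, with Col1a2 at 0 reads in all libraries and Col1a1 called lower with both siRNAs (48, 88 and 122 reads). Astrocyte markers summed to at most 0.0755 RPKM and blood markers to at most 0.246 RPKM. In bulk RNA, fewer cells with a transcript and less of it per cell cannot be told apart.

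Gabbr1 was higher in both knockdown libraries, Bak1 and Hps1 were lower in both, and Dlg4 differed little from the control. Hps1 alone of the 4 differed further between the knockdown libraries, with the lowest level where both siRNAs were used. Differences are on the log2(CPM + 1) scale, and a gene counts as called by size if the difference is 1 or more either way, the higher library holds 1 CPM or more, and the read ratio's interval excludes 1. With both siRNAs against control siRNA 1 of the 4 genes was called higher and 2 lower, while of the 13306 genes tested 1.1% were called higher, 2.66% lower and 3.77% either way. With Ptbp1 siRNA against control siRNA none of the 4 was called higher and 2 were called lower, while of 13286 genes 0.286% were called higher, 0.444% lower and 0.73% either way. Between both siRNAs and Ptbp1 siRNA alone none of the 4 was called, and of 13340 genes 0.105% were called higher, 0.345% lower and 0.45% either way. Library total scaling moved the balance of higher and lower genes, to 193 and 286 with both siRNAs in place of 147 and 354, and to 50 and 48 with Ptbp1 siRNA in place of 38 and 59. The median difference of all genes tested lay at -0.01, -0.00 and -0.00 in these pairs. The first and second pair share the control library, so they are not independent of each other.

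**Figure D2:**
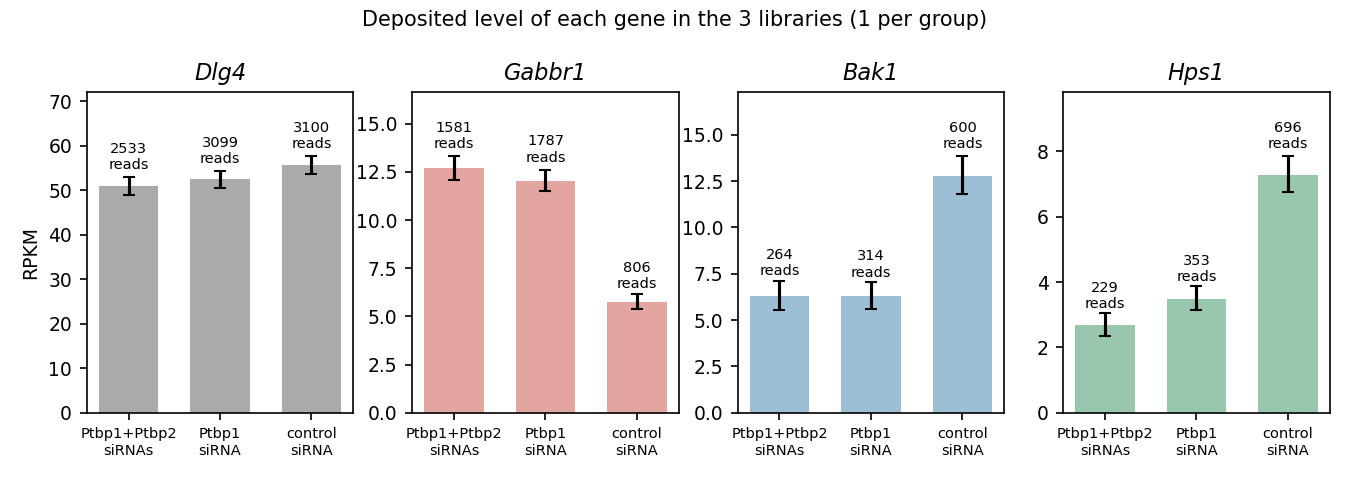
Deposited RPKM of each gene in the libraries with both siRNAs, Ptbp1 siRNA and control siRNA, 1 library each, on axes that start at 0. Bars are values, whiskers are exact 95% Poisson intervals that cover counting error only, and read numbers stand above them; Gabbr1 bars are higher in both knockdown libraries, Bak1 and Hps1 bars lower, and the 3 Dlg4 bars lie between 51.0 and 55.7.

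Gabbr1 carries the ligand site of the GABA-B receptor, the metabotropic receptor of the inhibitory transmitter GABA. Its cluster (chromosome 17, 37182911 to 37211250) held 1581 reads with both siRNAs, 1787 with Ptbp1 siRNA and 806 with control siRNA. Per length these were 12.7 RPKM (12.1 to 13.3), 12.05 RPKM (11.5 to 12.6) and 5.77 RPKM (5.38 to 6.18). The intervals of the knockdown libraries overlapped each other and lay above that of the control. Gabbr1 was 2.11-fold higher with both siRNAs than with control siRNA (1.94 to 2.30), a log2 difference of 1.06. With Ptbp1 siRNA alone it was 2.00-fold higher (1.84 to 2.18), at 0.99 on the log2(CPM + 1) scale, just short of the limit, and it was called under 3 of the 7 alternative settings. In that pair it ranked 39 from the highest of 13286 genes. Between both siRNAs and Ptbp1 siRNA the ratio was 1.05 (0.982 to 1.13), so the addition of Ptbp2 siRNA went with no difference beyond counting error.

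Bak1 acts with its relative Bax to permeabilise the outer mitochondrial membrane in apoptosis. Its cluster (chromosome 17, 27156757 to 27165571) held 264 reads with both siRNAs, 314 with Ptbp1 siRNA and 600 with control siRNA. Per length these were 6.30 RPKM (5.56 to 7.11), 6.30 RPKM (5.62 to 7.04) and 12.8 RPKM (11.8 to 13.8). The knockdown values were alike and below the control. Bak1 was 2.11-fold lower than with control siRNA both with both siRNAs (1.83 to 2.45) and with Ptbp1 siRNA (1.84 to 2.43), each at -1.04. The ratio of both siRNAs to Ptbp1 siRNA was 1.00 (0.845 to 1.18). The call rested close to its limit: library total scaling, a pseudocount of 5 CPM and the deposited RPKM values with 1 RPKM added each ended it in both pairs, with differences between -0.98 and -0.91. Without that pseudocount the RPKM values were 2.03-fold lower in both pairs.

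About 14.8% of the annotated exon bases of Bak1 are shared with Ggnbp1 on the other strand, and the library type does not mark strand. The clusters on that strand whose span overlaps Bak1, Zbtb9 and uc008bfe.1, held 296 and 4 reads with both siRNAs, 360 and 8 with Ptbp1 siRNA, and 330 and 6 with control siRNA. Their part in the Bak1 value was not tested. Counted from the lowest difference, Bak1 ranked 301 of 13306 genes with both siRNAs against control siRNA and 51 of 13286 with Ptbp1 siRNA against control siRNA.

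Hps1 forms with Hps4 the BLOC-3 complex, the exchange factor of Rab32 and Rab38, and its loss causes Hermansky-Pudlak syndrome in humans and the pale ear coat of the mouse. Its cluster (chromosome 19, 42829686 to 42853136) held 229 reads with both siRNAs, 353 with Ptbp1 siRNA and 696 with control siRNA. Per length these were 2.69 RPKM (2.35 to 3.06), 3.49 RPKM (3.13 to 3.87) and 7.29 RPKM (6.76 to 7.86). The 3 intervals did not overlap. Hps1 was 2.83-fold lower with both siRNAs than with control siRNA (2.43 to 3.30), a log2 difference of -1.44, ranked 79 from the lowest of 13306 genes. With Ptbp1 siRNA alone it was 2.18-fold lower (1.92 to 2.49), at -1.09, a call that ended with larger pseudocounts, 5 CPM (-0.97) or 1 RPKM added to the deposited RPKM values (-0.89). Without a pseudocount the RPKM values were 2.71-fold lower with both siRNAs and 2.09-fold lower with Ptbp1 siRNA than with control siRNA. Both siRNAs against Ptbp1 siRNA gave a level 1.30-fold lower (1.09 to 1.54), at -0.36, which counting error did not cover but 18.3% of all genes reached or passed in that pair. About 4.12% of its annotated exon bases are shared with Gm16244 on the other strand.

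Dlg4 encodes PSD-95, which anchors glutamate receptors at the postsynaptic density, and it was by far the most abundant of the 4 in every library. Its cluster (chromosome 11, 69832366 to 69858270) held 2533 reads with both siRNAs, 3099 with Ptbp1 siRNA and 3100 with control siRNA. Per length these were 51.0 RPKM (49.0 to 53.0), 52.4 RPKM (50.6 to 54.3) and 55.7 RPKM (53.7 to 57.7), more than 92.9%, 93.3% and 93.9% of the 13443 genes that reached 1 CPM in at least 1 library. Dlg4 was 1.14-fold lower with both siRNAs than with control siRNA (1.08 to 1.20) and 1.11-fold lower with Ptbp1 siRNA (1.05 to 1.16). The log2 differences were -0.19 and -0.15, and 64.1% and 58.3% of all genes tested were at least as far from 0. Both siRNAs against Ptbp1 siRNA gave a ratio of 0.972 (0.922 to 1.02). At this depth counting error leaves no room for a 1.5-fold higher value of the Dlg4 cluster in either knockdown library. Variation between cultures was not measured. The cluster value does not separate Dlg4 transcripts, which of them it covers is not given, and exon 18 inclusion was not measured.

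**Figure D3:**
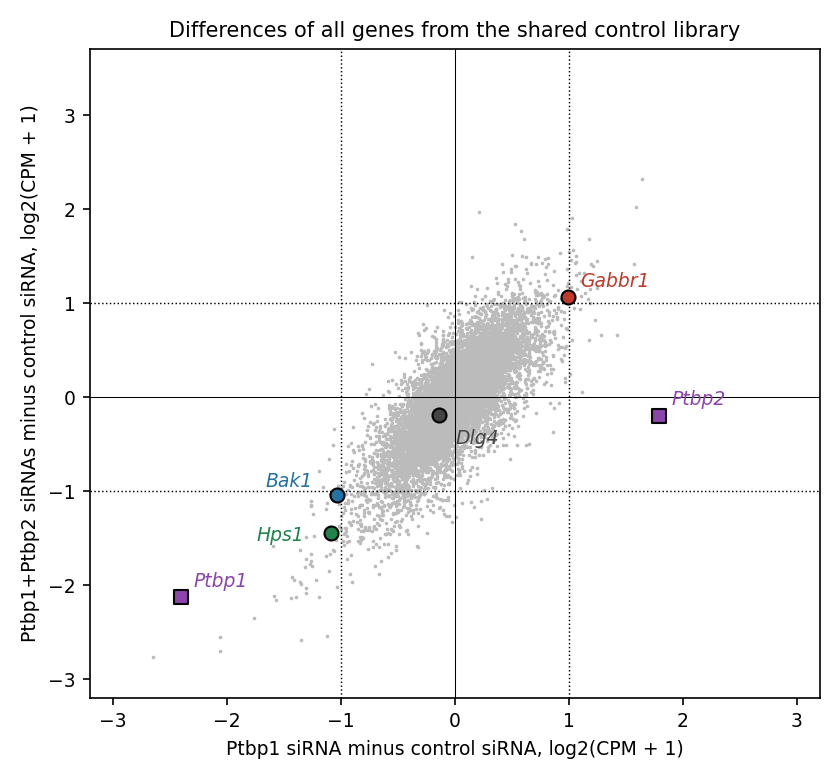
Each point is a gene, placed by its log2(CPM + 1) difference of Ptbp1 siRNA minus control siRNA (x axis) and of Ptbp1+Ptbp2 siRNAs minus control siRNA (y axis); dotted lines mark the limit of 1 used for a call. Hps1 and Bak1 lie in the sparse lower left at -1.09 and -1.04 on the x axis, Gabbr1 at the upper right at 0.99, Dlg4 inside the dense centre and Ptbp2 off the diagonal. Both axes use the same control library, so part of the slope of the cloud can come from that library, and how much was not tested.

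**Figure D4:**
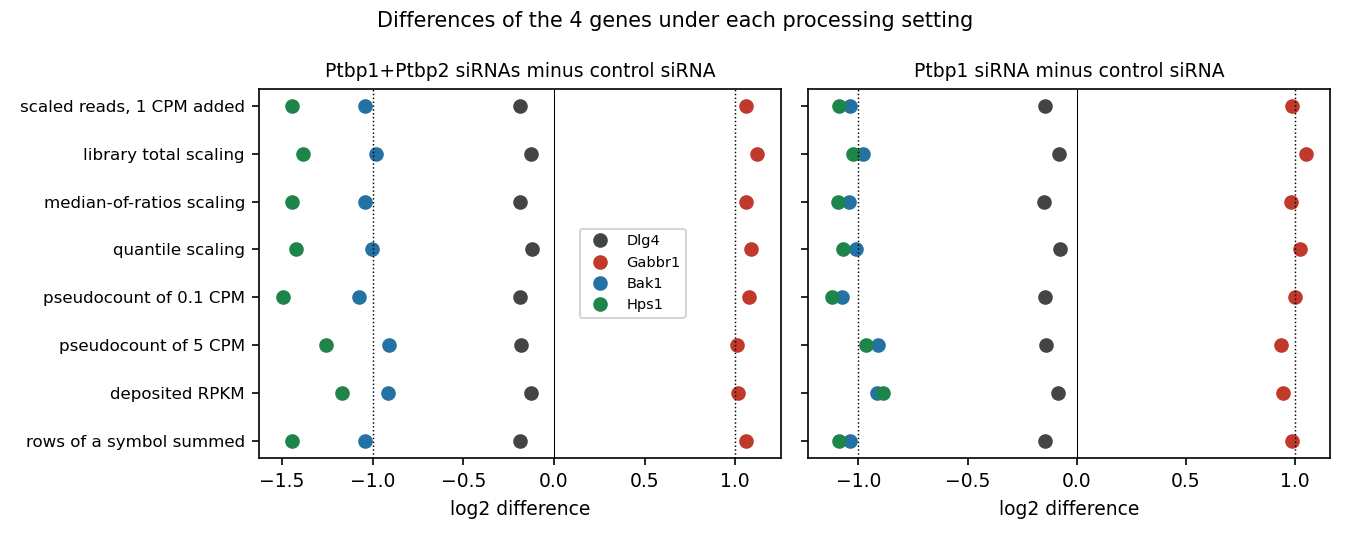
Log2 differences of the 4 genes from control siRNA under each processing setting (1 RPKM was added to the deposited RPKM values), with both siRNAs at left and Ptbp1 siRNA at right; dotted lines mark the limit of 1 in either direction. Gabbr1, Bak1 and Hps1 keep their side of 0 under all settings shown, Bak1 moves across the limit in both panels, and Gabbr1 and Hps1 move across it at right.

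The order of the levels per length differed between the libraries. With both siRNAs it ran Dlg4, Gabbr1, Bak1, Hps1, and with Ptbp1 siRNA it was the same, with no overlap between the intervals of neighbours. With control siRNA it ran Dlg4, Bak1, Hps1, Gabbr1, again without overlap. Gabbr1 thus stood second of the 4 in the knockdown libraries and last in the control. The exonic lengths given for the clusters were 2304 bases for Dlg4, 5782 for Gabbr1, 1943 for Bak1 and 3948 for Hps1. The coding transcripts hold 3457, 5248, 2387 and 2847 bases in the same order. The Dlg4 and Bak1 clusters thus leave out part of the annotated exon bases, and which exons were counted is not given. The alternative stretches correspond in size to 4.77%, 2.61%, 1.03% and 3.24% of the cluster lengths. Whether each cluster includes its stretch is not known, and reads over the stretches themselves were not measured. A search of the genome found no other stretch of at least 36 bases at 95% identity to the Dlg4, Bak1 or Hps1 coding transcript. For Gabbr1 36 of 5248 bases matched elsewhere. The search needed an exact match of 28 bases and left out low-complexity sequence, so short copies with a mismatch could be missed.

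The genes whose 2 differences from control were nearest to each member were found by distance on the log2(CPM + 1) scale. The search covered 9894 named genes with a mean of at least 5 CPM over the 3 libraries. Genes whose annotated exons overlap those of another gene were passed over when the nearest were named. They remain in the 9894 and in the counts within a distance of 0.1, so some unnamed genes may be as near. Nearest to Gabbr1 were Sct, the secretin gene, at 106, 118 and 47 reads with both siRNAs, Ptbp1 siRNA and control siRNA, then Mcm10, a DNA replication factor gene, and Atoh8, a bHLH transcription factor gene. Their distances were 0.02, 0.03 and 0.04. Nearest to Bak1 were Rgs2, a regulator of G protein signalling (211, 238 and 478 reads), and Atg16l2, a relative of an autophagy gene, at 0.06 and 0.08. Nearest to Hps1 were Papss2, which makes the sulfate donor of the cell (44, 77 and 159 reads), Tcp11l2 and Trappc6a, a vesicle tethering gene, at 0.06, 0.09 and 0.10. Within a distance of 0.1, overlapping genes included, there were 3 genes for Gabbr1, 3 for Bak1, 6 for Hps1 and 756 for Dlg4. Nearest to Dlg4 of the genes without overlap were Plekhm3, Lbh and Aimp1, at 0.01 each. With 3 libraries such likeness is a description of 2 values.

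The partners of each protein were then followed in lists chosen for their function. In the postsynaptic list around Dlg4, 20 genes were tested with both siRNAs against control siRNA, 11 above and 9 below 0, with a median of 0.03. None was called, and of all 13306 genes tested in that pair 3.77% were called either way. Dlg2, the gene of the related scaffold PSD-93, was 1.82-fold higher (1.65 to 2.01), with 1117, 1029 and 660 reads with both siRNAs, Ptbp1 siRNA and control siRNA. Homer3, another scaffold gene, was 1.45-fold higher (1.24 to 1.69), and Dlg3, the gene of the MAGUK SAP102, 1.42-fold lower (1.27 to 1.59). With Ptbp1 siRNA the list's median was 0.01 over 19 genes, again with none called. The NMDA receptor gene Grin1 had 59, 94 and 44 reads, and Grin2a and Grin2b had 0 in every library, where a limit of 3 counts is 0.210 CPM with both siRNAs, 0.177 with Ptbp1 siRNA and 0.196 with control siRNA.

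In the GABA-B list, Gabbr2, the gene of the second receptor subunit, had 2 reads with both siRNAs, 0 with Ptbp1 siRNA and 1 with control siRNA. Gabbr1 was thus read in every library with almost none of its partner subunit's mRNA. Of 14 genes tested with both siRNAs against control siRNA, 1 was called higher, 6 were above 0 and the median was -0.04. Of all 13306 genes tested in that pair 1.1% were called higher and 3.77% either way. Whether 1 of 14 differs from that share was not tested. The called gene was Kcnj9, which encodes a G protein-gated potassium channel subunit that the receptor can open. It had 145, 131 and 64 reads with both siRNAs, Ptbp1 siRNA and control siRNA, so it was 2.44-fold higher with both siRNAs (1.80 to 3.32), and with Ptbp1 siRNA 1.85-fold higher (1.36 to 2.54), than with control siRNA. Rgs7, a regulator of G protein signalling, was 1.75-fold higher with both siRNAs (1.51 to 2.03), and Jakmip1, whose product binds GABBR1, 1.61-fold (1.37 to 1.91). The G protein genes of the list that were tested lay below 0 with both siRNAs, Gnao1 at -0.02, Gnb1 at -0.11, Gnai2 at -0.22, Gnai3 at -0.38 and Gnb2 at -0.41, none of them called.

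In the BCL-2 and apoptosis list around Bak1, 21 genes were tested in each pair and none was called. Of all genes tested 3.77% were called either way with both siRNAs and 0.73% with Ptbp1 siRNA against control siRNA. With both siRNAs against control siRNA 9 of the 21 were above and 12 below 0, with a median of -0.05. With Ptbp1 siRNA 10 of the 21 were above and 11 below, with a median of -0.01. Bax, the close relative of Bak1, had 1345 reads with both siRNAs, 1436 with Ptbp1 siRNA and 1235 with control siRNA, at 0.22 and 0.07 against control, on the other side of 0 from Bak1. The survival gene Bcl2l1 was at 0.48 and 0.33. The 3 members farthest from 0 with both siRNAs were Bmf, a BH3-only gene, 1.85-fold lower (1.60 to 2.14), Apaf1, the apoptosome scaffold gene, 1.78-fold lower (1.59 to 2.00), and Casp9, the caspase it activates, 1.66-fold lower (1.47 to 1.88).

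In the list of BLOC, AP-3 and lysosome-related organelle genes around Hps1, 25 genes were tested, of which 8 were above and 17 below 0 with both siRNAs against control siRNA, with a median of -0.16. With Ptbp1 siRNA 7 were above and 18 below, with a median of -0.11 and none called. Hps4, the partner in BLOC-3, had 407, 471 and 495 reads with both siRNAs, Ptbp1 siRNA and control siRNA, at -0.17 and -0.21 against control. Rab32, a small GTPase that BLOC-3 activates, was the 1 gene called, with 24, 46 and 95 reads. With both siRNAs against control siRNA 2.66% of all 13306 genes tested were called lower and 3.77% either way. Whether 1 of 25 differs from that share was not tested. Rab32 was 3.68-fold lower with both siRNAs (2.33 to 6.03) and 2.28-fold lower with Ptbp1 siRNA (1.59 to 3.32). Rab38, its close relative, had 0 reads in every library. Bloc1s1 and Hps5 were 1.59-fold (1.41 to 1.80) and 1.55-fold lower (1.30 to 1.84) with both siRNAs.

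**Figure D5:**
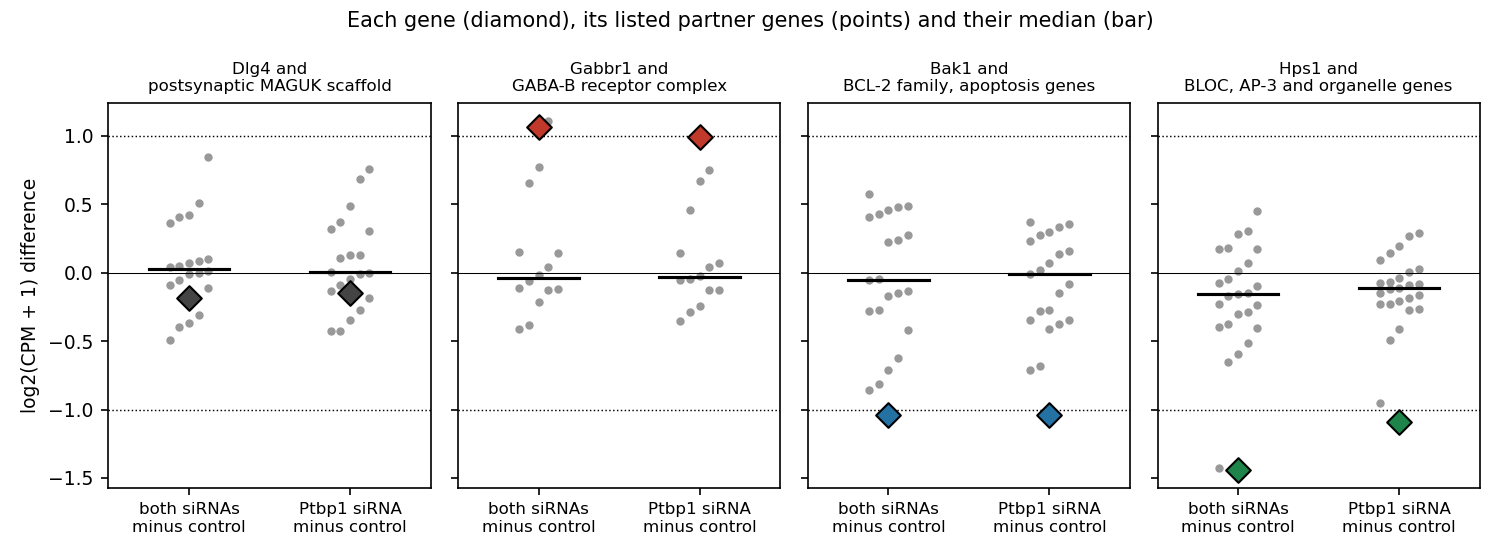
Differences from control siRNA on the log2(CPM + 1) scale for each of the 4 genes (diamonds) and the genes of its partner list that reached 1 CPM in at least 1 library (points, with the list's median as a bar), with both siRNAs at left and Ptbp1 siRNA at right in each panel. Dlg4 lies among its partners, Bak1 lies below every point of its list, Hps1 at -1.44 lies beside Rab32 at -1.42 with both siRNAs, and Gabbr1 lies above all of its points but Kcnj9 with both siRNAs.

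Other genes with exons that PTBP proteins tie to decay are the PTB family members themselves and Flna, the filamin A gene, whose poison exon PTBP1 is known to repress. Flna had 1533 reads with both siRNAs, 1981 with Ptbp1 siRNA and 11306 with control siRNA, so it was 6.86-fold lower with both siRNAs (6.50 to 7.24) and 6.31-fold lower with Ptbp1 siRNA (6.02 to 6.62), a larger difference than those of the 4 genes. Ptbp3, listed under its older symbol Rod1, was at -0.28 and -0.09 with neither called.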

How the data were processed

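The deposited table holds a whole-number read value and an RPKM value per gene cluster and library, on mm9 per the submitters' processing notes and per the file headers. The aligner and counter, like the gene set, are not given in the sources used here. Deposited read values are net: 38 clusters held a value below 0, the lowest -65, and were left out with 127 clusters of no length. The rest were treated as counts, so intervals are approximate, and they cover counting error only, since PCR copies were not told apart. The plan had assumed plain counts. The authors' RPKM values divide by length and by library totals of 21572838 (both siRNAs), 25649604 (Ptbp1 siRNA) and 24167120 (control siRNA). Cluster starts match annotated exon starts counted from 1 in 11001 of 27262 clusters, and ends lie 1 base past annotated ends in 10875, so 1 was taken off the ends.

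Clusters were named by alias and position, 1 row per symbol (26840 rows), and scaled with trimmed means of M values in numpy 2.4.6, leaving out 30% by M and 5% by A. Differences are of log2(CPM + 1), which understates low genes. Ratio intervals are 95% Clopper-Pearson intervals of the conditional binomial (scipy 1.17.1). Calls need a log2(CPM + 1) difference of 1 or more either way, 1 CPM in the higher library and a ratio interval that excludes 1. Sequences were read from NCBIM37 with GENCODE exons, and copies were searched with blastn 2.17.0. The 4 genes, the lists and the rule were chosen with earlier results of these data known. Named were the 4 genes, the targeted genes, list members called or, in lists with none, the 3 with the largest difference with both siRNAs, the 3 nearest patterns per gene and, after their values were seen, Rgs7, Jakmip1, Bloc1s1, Hps5, Dbh, Phox2a, Col1a1, Grin1, Grin2a, Grin2b, Gabbr2, Gnao1, Gnb1, Gnai2, Gnai3, Gnb2, Bax, Bcl2l1, Hps4 and Rab38. Of the postsynaptic list 26 of 28 genes were used here. Some results that met these rules are not reported here.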

Additional observations from a re-analysis of the deposited data

How the results depend on the processing

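Of 84 values of the 4 genes under 7 alternatives, 82 moved by no more than the wider arm of the read ratio's interval in log2 units. None of the called differences changed sign. With 1 RPKM added to the deposited RPKM values Hps1 was at -1.17 with both siRNAs and -0.89 with Ptbp1 siRNA against control siRNA. The added 1 RPKM moved these values, since the RPKM values without it were 2.71-fold and 2.09-fold lower. Gabbr1 with Ptbp1 siRNA ranged from 0.94 to 1.05 around the limit, Bak1 from -1.08 to -0.91 in both pairs, and Dlg4 from -0.19 to -0.08 over both.

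Counts of called genes moved with the settings. With both siRNAs against control siRNA the 147 higher and 354 lower genes became 350 higher at a pseudocount of 0.1 CPM, 45 and 174 at 5 CPM, 83 and 167 with RPKM + 1, 992 and 1311 at a 1.5-fold limit and 9 and 47 at 3-fold. With Ptbp1 siRNA against control siRNA the 38 and 59 became 173 and 133 at 0.1 CPM, 4 and 26 at 5 CPM, 13 and 36 with RPKM, 23 higher with a filter of 5 CPM, 407 and 448 at 1.5-fold and 3 and 7 at 3-fold. With both siRNAs against Ptbp1 siRNA the 14 and 46 became 86 and 170 at 0.1 CPM, 1 and 9 at 5 CPM, 7 and 19 with RPKM, 6 higher with a filter of 5 CPM, 246 and 479 at 1.5-fold and 1 and 1 at 3-fold. Partner genes called were 2 with both siRNAs and 0 with Ptbp1 siRNA against control siRNA, and 0 between the knockdown libraries. Of all genes tested 3.77%, 0.73% and 0.45% were called in these pairs. At 1.5-fold the partner genes called were 11, 7 and 1. Library total scaling shifted the median of all genes to 0.05 and 0.06 against control.

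No paired analysis was possible because each group had 1 library, and for the same reason leaving out a replicate was not an option.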
